A study of Arabidopsis thaliana with 2 samples.

Results

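The histone genes of Arabidopsis thaliana described here are 40 loci of the 33602 in the deposited expression table, taken from a given list of locus identifiers. They are 8 H4 genes, 5 H3.1 genes, 3 H3.3 genes, the centromeric H3 gene HTR12, 4 canonical H2A genes, 2 H2A.X, 3 H2A.W and 3 H2A.Z genes, 8 H2B genes and 3 linker H1 genes. All 40 had a row in the table. They were sorted by role into 25 replication-linked genes (H4, H3.1, canonical H2A and H2B), 12 replacement genes (H3.3, HTR12, H2A.X, H2A.W and H2A.Z) and the 3 linker genes. The assignment follows the classes and used no expression value.

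RNA from the main stem was sequenced for an hdt1 mutant and for the wild type, with 1 library each. Both were grown at 20 °C with 16 h of light and 8 h of dark, and both were sampled 35 days after flowering. The sources used here do not give the allele, the background accession or the number of plants behind a library. HDT1 encodes an HD2-type histone deacetylase of plants, and its own transcript was at 5.19 FPKM in hdt1 and 52.6 FPKM in wild type, 10.2-fold lower in hdt1.

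DNA in the nucleus is wound around cores of H2A, H2B, H3 and H4, and H1 binds the linker between them. Replication-linked histones are made mainly in S phase to package newly copied DNA, so their transcripts are known as marks of dividing cells. Replacement histones are made and inserted outside replication: H3.3 is associated with transcribed genes, H2A.Z with gene starts and responsive genes, H2A.W with heterochromatin, and H2A.X is phosphorylated at DNA breaks. Most plant histone mRNAs are polyadenylated, unlike the replication-linked ones of animals.

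FPKM is a fragment count scaled to gene length and to the library total, so levels can be compared between genes per length. Recovered totals were 23070249 reads in the hdt1 library and 21728500 in the wild-type library. Folds are ratios of the FPKM values, and the brackets after them hold the exact Clopper-Pearson interval at 95% from the recovered reads. The interval covers counting error in these 2 libraries and says nothing of the spread between plants. With 1 library per genotype no difference has a replicate check and no test was made, so "higher" and "lower" describe the hdt1 library set against the wild-type library. Log2 ratios have 1 FPKM added to both values, which understates differences of low genes, and the counts cover the 17811 genes whose mean reached 1 FPKM.

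The promoters of the histone genes carry short elements known from plant histone promoters, which is why a few are shown here before the values. An octamer (CGCGGATC, either strand) and a hexamer (ACGTCA, either strand) were searched from 250 bases before to 50 bases after the annotated start of each gene in RefSeq's TAIR10.1 annotation. All 40 members were matched by locus. The octamer was in 10 of the 40 histone promoters and in 0.15% of all 27443 protein-coding promoters, 40 genes in total, so histone genes make up 25% of the genes that have it. The hexamer was in 12 of 40 histone promoters (30%) and in 9.19% of all promoters, and all 8 H2B genes had it. The 5 stretches below are the 130 bases before the annotated start, on the gene's own strand. They come from the 3 members past 2-fold with 1 FPKM added (HTA6, HTA10 and AT3G53650) and, as further examples of each element, from AT1G09200 and HTB11. HTA6, HTA10 and AT3G53650 were thus chosen by their difference between the libraries. All 5 hold an element, and genes without one are not shown. Capitals mark the octamer in AT1G09200 (H3.1), HTA6 (H2A.W) and HTA10 (H2A), where the second copy in HTA10 is on the opposite strand, and the hexamer in AT3G53650 and HTB11 (both H2B).
AT1G09200: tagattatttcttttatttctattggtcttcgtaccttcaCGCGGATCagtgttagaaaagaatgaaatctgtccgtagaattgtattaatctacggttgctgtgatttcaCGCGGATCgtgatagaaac
HTA6: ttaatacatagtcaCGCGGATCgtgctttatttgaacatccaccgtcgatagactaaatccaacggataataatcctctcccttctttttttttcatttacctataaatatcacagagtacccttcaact
HTA10: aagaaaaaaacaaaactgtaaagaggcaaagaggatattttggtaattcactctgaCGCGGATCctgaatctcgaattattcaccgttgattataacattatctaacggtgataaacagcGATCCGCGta
AT3G53650: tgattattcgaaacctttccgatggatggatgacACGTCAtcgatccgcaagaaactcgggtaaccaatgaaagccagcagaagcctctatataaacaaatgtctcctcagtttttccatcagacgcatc
HTB11: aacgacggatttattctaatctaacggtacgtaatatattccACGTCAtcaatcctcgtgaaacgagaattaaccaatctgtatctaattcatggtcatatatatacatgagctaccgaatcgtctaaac

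Most histone transcripts were lower in the hdt1 library, by modest amounts. Of the 39 members that entered, 33 had a log2 ratio below 0 and 6 above, with a median of -0.30. Over all 17811 genes 54.0% were below 0 and the median was -0.03. The histone genes are short, and short genes as a whole were lower: among all genes in the members' length range of 417 to 1405 bases, 65.8% were below 0 with a median of -0.13. With the trend of log2 ratio with gene length removed, 26 of the 39 members were below 0 and their median was -0.11. The part of gene length in the differences that follow was not otherwise tested.

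Few members differed by 2-fold. With 1 FPKM added, 1 was at least 2-fold higher (HTA6, an H2A.W gene) and 2 at least 2-fold lower (HTA10, a canonical H2A gene, and AT3G53650, an H2B gene). By the plain FPKM ratio HTA11, an H2A.Z gene, was also past 2-fold, at 2.35-fold higher. Over all genes compared, 2.32% were at least 2-fold higher and 0.741% at least 2-fold lower, so 1 of 39 is near the share among all genes, and the 2 that were lower are above it but are only 2 genes. The counting interval lay below 1 for 26 members, above 1 for 5 and included 1 for 8. Over all genes compared the interval lay below 1 for 29.1% and above 1 for 24.9%, and in the members' length range for 41.2% and 18.1%. In bulk RNA, fewer cells of a type and less RNA per cell cannot be told apart.

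**Figure D1:**
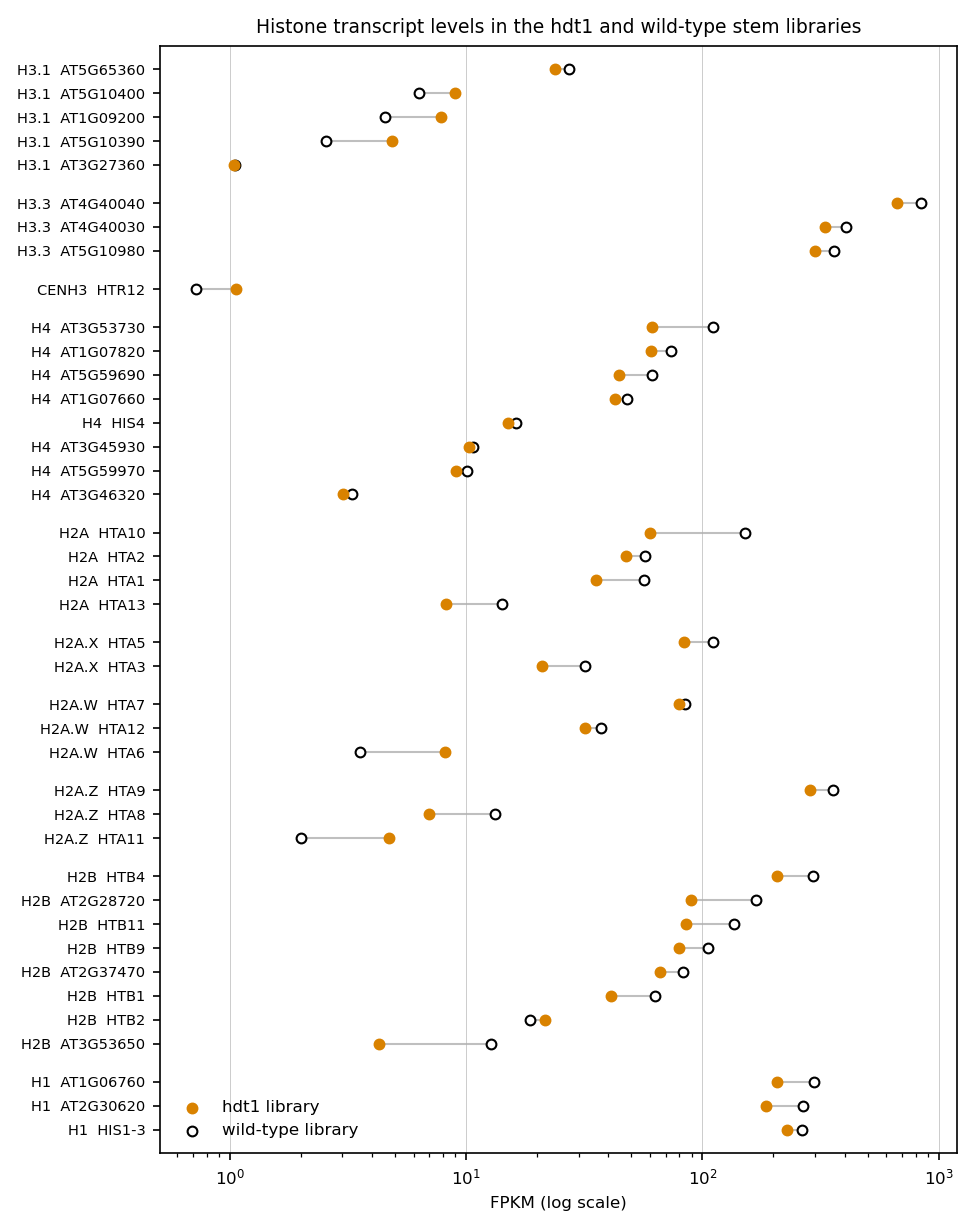
FPKM of each of the 40 histone genes (log axis) in the hdt1 library (filled) and the wild-type library (open), 1 library each, grouped by class and ordered within a class by the wild-type value. H3.3 genes are the highest of the H3 family, and the H3.1 genes with fewer than 10 FPKM include the 3 whose filled point lies to the right.

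The H3.1 genes, which encode the replication-linked form of H3, were the class with most members higher in hdt1. All 5 encode 1 and the same protein of 136 residues and have no coding intron. AT1G09200 was at 7.86 FPKM in hdt1 and 4.55 FPKM in wild type, 1.73-fold higher (1.25 to 2.41), from 110 and 60 reads. AT5G10390 was at 4.86 FPKM in hdt1 and 2.55 FPKM in wild type, 1.91-fold higher (1.28 to 2.88), from 79 and 39 reads. Its neighbour on the chromosome, AT5G10400, was at 8.94 FPKM in hdt1 and 6.31 FPKM in wild type, 1.42-fold higher (1.08 to 1.87). Each of these 3 intervals lay above 1.

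The most abundant H3.1 gene went the other way in its value. AT5G65360 was at 23.7 FPKM in hdt1 and 27.2 FPKM in wild type, and the interval of its fold included 1. AT3G27360 was at 1.04 FPKM in hdt1 and 1.05 FPKM in wild type, from 20 and 19 reads. It overlaps a neighbouring gene in the annotation and shares 35.6% of its 50-base windows with other loci, so its reads are uncertain. Summed over the class, H3.1 reached 46.4 FPKM in hdt1 and 41.7 FPKM in wild type. AT5G65360 alone held the largest part of that sum in both libraries.

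The 8 H4 genes, which encode an identical protein of 103 residues, all had lower values in the hdt1 library as deposited, with a median log2 ratio of -0.16, but with the length trend removed the median was 0.03 and 3 of 8 were below 0. AT3G53730 stood furthest from equal, at 61.4 FPKM in hdt1 and 111 FPKM in wild type, 1.80-fold lower (1.65 to 1.97). AT5G59690 was at 44.5 FPKM in hdt1 and 61.1 FPKM in wild type, 1.37-fold lower (1.23 to 1.53). AT1G07820 was at 60.6 FPKM in hdt1 and 73.4 FPKM in wild type, 1.21-fold lower (1.11 to 1.32). AT1G07660 was at 42.6 FPKM in hdt1 and 48.1 FPKM in wild type, 1.13-fold lower (1.02 to 1.26), and its log2 ratio was 0.03 when the length trend was removed, the only member with an interval that excluded 1 to change sign there. These 4 are the abundant H4 genes.

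The 4 less abundant H4 genes had intervals that included 1. HIS4 was at 15.1 FPKM in hdt1 and 16.3 FPKM in wild type, and AT3G45930 at 10.3 FPKM in hdt1 and 10.7 FPKM in wild type. AT5G59970 was at 9.03 FPKM in hdt1 and 10.1 FPKM in wild type, and AT3G46320 at 3.01 FPKM in hdt1 and 3.29 FPKM in wild type, the last from 36 and 37 reads. Near-identical copies could exchange reads here: AT3G46320 shares 27.9% of its 50-base windows with AT3G45930, and AT1G07660 shares 24.9% with AT1G07820. Summed, the H4 family was at 247 FPKM in hdt1 and 334 FPKM in wild type, 1.35-fold lower.

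Canonical H2A, the replication-linked form that pairs with H2B, was lower in all 4 genes, under every scaling tried. HTA10 was at 60.0 FPKM in hdt1 and 152 FPKM in wild type, 2.53-fold lower (2.34 to 2.73), from 933 and 2221 reads. It was the most abundant canonical H2A gene in both libraries. HTA1, also known for its part in Agrobacterium transformation, was at 35.4 FPKM in hdt1 and 56.5 FPKM in wild type, 1.60-fold lower (1.40 to 1.83). HTA13 was at 8.24 FPKM in hdt1 and 14.2 FPKM in wild type, 1.72-fold lower (1.37 to 2.17). HTA2 was the closest to equal, at 47.6 FPKM in hdt1 and 57.1 FPKM in wild type, 1.20-fold lower (1.09 to 1.33). The class median was -0.69 on the log2 scale.

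H2B was lower in 7 of its 8 genes, again under every scaling tried, with a class median of -0.56. AT3G53650, the lowest in abundance, was at 4.26 FPKM in hdt1 and 12.7 FPKM in wild type, 2.98-fold lower (2.07 to 4.36), from 41 and 115 reads. Its log2 ratio of -1.38 was number 59 counted from the lowest of the 17811 genes. AT2G28720 was at 89.8 FPKM in hdt1 and 169 FPKM in wild type, 1.88-fold lower (1.76 to 2.01). HTB11 was at 85.6 FPKM in hdt1 and 136 FPKM in wild type, 1.58-fold lower (1.48 to 1.70). HTB1 was at 41.0 FPKM in hdt1 and 63.0 FPKM in wild type, 1.54-fold lower (1.39 to 1.70). These 4 are spread from the rarest to the second most abundant gene in wild type, so the larger folds were not limited to 1 level.

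The remaining H2B genes differed less. HTB4, the most abundant, was at 206 FPKM in hdt1 and 294 FPKM in wild type, 1.42-fold lower (1.37 to 1.49). HTB9 was at 79.7 FPKM in hdt1 and 105 FPKM in wild type, 1.32-fold lower (1.23 to 1.42). AT2G37470 was at 66.3 FPKM in hdt1 and 82.6 FPKM in wild type, 1.25-fold lower (1.14 to 1.36). HTB2 was the exception in value, at 21.7 FPKM in hdt1 and 18.7 FPKM in wild type, with an interval that included 1 (0.983 to 1.36). The hexamer was present in the search window of all 8 H2B genes, in HTB2 as in the lower genes. The only copy in HTB4 lay after the annotated start. Summed, H2B was at 594 FPKM in hdt1 and 881 FPKM in wild type, 1.48-fold lower.

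**Figure D2:**
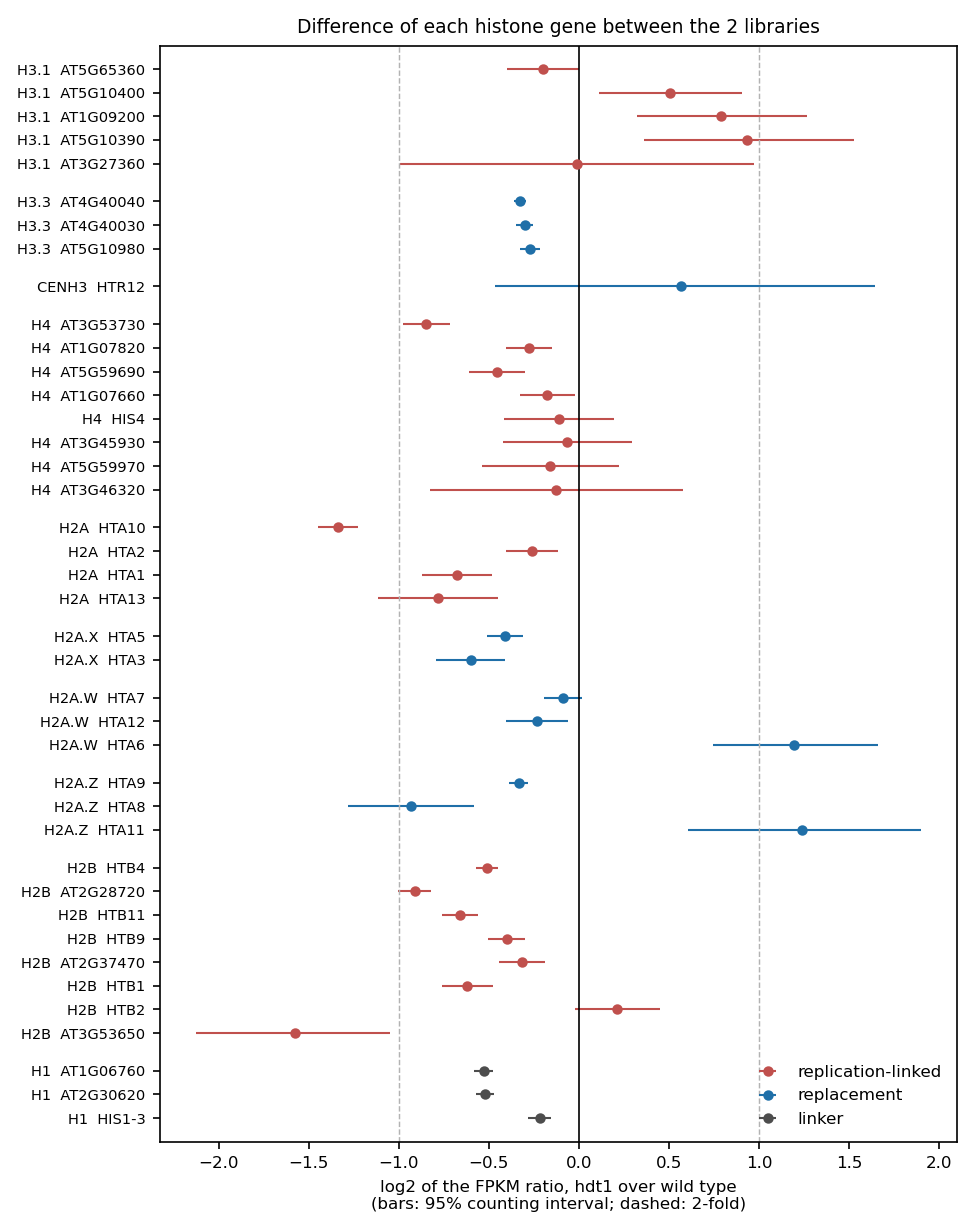
Log2 of the FPKM ratio, hdt1 over wild type, with no FPKM added, for each of the 40 histone genes, with bars for the 95% counting interval and dashed lines at 2-fold. Canonical H2A and H2B lie to the left of 0 except HTB2, while 3 H3.1 genes, HTA6 and HTA11 lie to the right with intervals that exclude 0.

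The 3 H3.3 genes, whose product replaces H3.1 outside replication, were the most abundant core histone transcripts and were lower by nearly the same factor. AT4G40040 was at 669 FPKM in hdt1 and 840 FPKM in wild type, 1.26-fold lower (1.23 to 1.28). Its neighbour AT4G40030 was at 329 FPKM in hdt1 and 405 FPKM in wild type, 1.23-fold lower (1.19 to 1.27). AT5G10980 was at 299 FPKM in hdt1 and 361 FPKM in wild type, 1.21-fold lower (1.16 to 1.25). All 3 stayed below 0 under every scaling tried, with a class median of -0.30 as deposited and -0.11 with the length trend removed. The H3.3 genes have 2 or 3 coding introns, where H3.1 genes have none, and their 136-residue forms differ from H3.1 at 4 residues. HTR12, which encodes the centromere-specific H3, was at 1.07 FPKM in hdt1 and 0.721 FPKM in wild type, from 22 and 14 reads, and its interval (0.724 to 3.13) included 1. Its mean was under 1 FPKM, so it did not enter the counts.

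The H2A.X genes, which mark DNA damage once phosphorylated, were both lower. HTA5 was at 83.4 FPKM in hdt1 and 111 FPKM in wild type, 1.33-fold lower (1.24 to 1.43). HTA3 was at 21.1 FPKM in hdt1 and 31.9 FPKM in wild type, 1.52-fold lower (1.33 to 1.73). Both values lay below 0 under every scaling tried.

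The H2A.W genes, whose product sits in heterochromatin, differed among themselves. HTA6 was at 8.12 FPKM in hdt1 and 3.54 FPKM in wild type, 2.29-fold higher (1.68 to 3.16), from 141 and 58 reads. HTA7, the main H2A.W transcript, was at 79.7 FPKM in hdt1 and 84.7 FPKM in wild type with an interval that included 1. HTA12 was at 31.8 FPKM in hdt1 and 37.3 FPKM in wild type, 1.18-fold lower (1.04 to 1.33). HTA6 was thus the rare gene of its class and the only one of the 3 with a higher value. The class median was -0.09, but 0.07 with the length trend removed.

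The H2A.Z genes, too, differed among themselves. HTA9, the main H2A.Z transcript, was at 285 FPKM in hdt1 and 359 FPKM in wild type, 1.26-fold lower (1.22 to 1.31), a fold close to those of the H3.3 genes. HTA8 was at 6.97 FPKM in hdt1 and 13.3 FPKM in wild type, 1.91-fold lower (1.4997 to 2.44). HTA11 was at 4.72 FPKM in hdt1 and 2.004 FPKM in wild type, 2.35-fold higher (1.52 to 3.73), from 75 and 30 reads. With 1 FPKM added the log2 ratio of HTA11 was 0.93, under the 2-fold limit. The 2 low genes of the class, HTA8 and HTA11, thus lay on opposite sides of equal.

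The 3 linker H1 genes were lower in hdt1 under every scaling tried, with a median log2 ratio of -0.52. AT1G06760 was at 207 FPKM in hdt1 and 298 FPKM in wild type, 1.44-fold lower (1.39 to 1.495). AT2G30620 was at 185 FPKM in hdt1 and 266 FPKM in wild type, 1.44-fold lower (1.39 to 1.48). HIS1-3, the drought-inducible linker histone, was at 228 FPKM in hdt1 and 265 FPKM in wild type, 1.16-fold lower (1.11 to 1.22). AT1G06760 and AT2G30620 therefore differed by nearly the same factor and HIS1-3 by less, with intervals that do not overlap. AT1G06760 and AT2G30620, and also HTA3, HTA9, HTA12, HTA13 and HTB9, overlap another gene in the annotation. The sources used here do not say whether strand was used in counting, so reads of these genes carry that uncertainty.

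Set side by side, the replication-linked and replacement groups had like medians and unlike sums. Of 25 replication-linked genes 21 were below 0 with a median of -0.27, and of the 11 replacement genes that entered 9 were below 0 with a median of -0.30. Summed FPKM was 1039 in hdt1 and 1535 in wild type for the replication-linked genes, 1.48-fold lower, and 1819 in hdt1 and 2250 in wild type for the replacement genes, 1.24-fold lower. The classes within the replication-linked group differed. Paired by partner, a split that was not among the planned groups, canonical H2A and H2B were below 0 in 11 of 12 genes with a median of -0.63. H3.1 and H4 were below 0 in 10 of 13 with a median of -0.10. That pair joins unlike classes: H3.1 was above 0 in 3 of 5 genes with a median of 0.44, and H4 below 0 in 8 of 8 with a median of -0.16. With the length trend removed the group medians were -0.07 for the replication-linked and -0.11 for the replacement genes.

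Within the H2A family the canonical form made up 22.5% of the FPKM sum in the hdt1 library and 30.3% in the wild-type library. H2A.Z made up 44.1% in hdt1 and 40.6% in wild type, H2A.W 17.8% in hdt1 and 13.6% in wild type, and H2A.X 15.6% in hdt1 and 15.5% in wild type. H3.3 dominated the H3 family in both, with 96.5% in hdt1 and 97.4% in wild type, and H3.1 made up 3.45% in hdt1 and 2.53% in wild type. The H2A family as a whole was at 672 FPKM in hdt1 and 922 FPKM in wild type, and the H3 family at 1345 FPKM in hdt1 and 1649 FPKM in wild type.

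**Figure D3:**
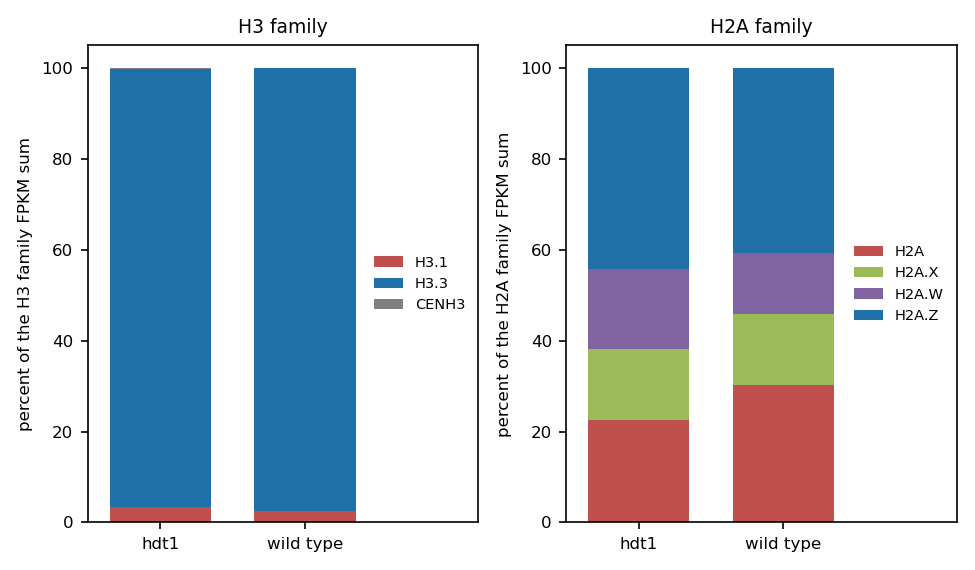
Share of each class in the summed FPKM of the H3 family and of the H2A family, in percent, for the hdt1 library and the wild-type library. The canonical H2A share is 22.5% in hdt1 and 30.3% in wild type, and H3.3 fills nearly the whole H3 bar in both libraries.

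By abundance, the values were as follows. Of the 30 members whose mean reached 10 FPKM, 29 were below 0, with a median of -0.37, against 58.2% and a median of -0.05 for all genes at that level. Of the genes at that level in the members' length range, 72.6% were below 0, with a median of -0.16. Of the 9 members with a mean of 1 to 10 FPKM, 5 were above 0 (55.6%), against 52.9% of all genes at that level, so this count is near that of all genes. Their median was 0.44, against 0.02 for all genes at that level. The counting interval lay above 1 for the same 5 members (55.6%) and below 1 for 1 (11.1%). Among all genes at that level it lay above 1 for 23.2% and below 1 for 15.4%. The 5 are AT1G09200, AT5G10390, AT5G10400, HTA6 and HTA11. They come from the H3.1, H2A.W and H2A.Z classes, so both replication-linked and replacement genes are among them.

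Genes with and without the octamer or the hexamer lay on both sides of equal. Only 6 members that entered were above 0, and a link between element and direction was not tested. Of the 10 genes with the octamer, 7 were below 0 and 3 above, and their median was -0.26, and of the 29 without it that entered, 26 were below and 3 above, and their median was -0.30. AT1G09200 and HTA10, shown above, have 2 copies each within these bases and lay on opposite sides of equal. The octamer was in 3 of 5 H3.1, 2 of 4 canonical H2A and 0 of 8 H2B promoters. The 12 genes with the hexamer had a median of -0.36, and the 27 without it -0.26. The nonamer CATCCAACG was in 0 of 40 members and in 0.17% of all promoters. E2F-type letters, searched as TTTCCCGC, TTTGGCGC, TTTCGCGC or TTTGCCGC on either strand, were in 3 of 40 members (7.5%) and 1.76% of all promoters. TATAAA on the gene's strand was in 18 of 40 (45%) and 37.2% of all. A match is a string of letters in the window and says nothing of binding.

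Gene structure followed the groups. No coding intron was found in 21 of the 25 replication-linked genes, the other 4 being the canonical H2A genes with 1 each, while all 12 replacement genes and the 3 linker genes had at least 1.

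Genes that handle histones or act in the cell cycle lay on both sides of equal. Of 13 genes for deposition of H3 and H4, 9 entered, with 7 above 0, 2 below and a median of 0.07. ATRX, a remodeller that assists H3.3 deposition, was at 11.2 FPKM in hdt1 and 7.95 FPKM in wild type, 1.41-fold higher (1.29 to 1.54). Its length of 4851 bases is in the range where most genes were higher. UBN1 and CABIN1, of the HIRA complex that deposits H3.3, were 1.12-fold and 1.13-fold higher, with intervals from 1.02 to 1.24 and from 1.01 to 1.27, but CABIN1 lay below 0 with the length trend removed. ASF1A, an H3-H4 chaperone, was at 14.3 FPKM in hdt1 and 16.6 FPKM in wild type, with an interval that included 1.

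Of 14 chaperones and remodellers of H2A and H2B, 13 entered, 5 above 0 and 8 below, with a median of -0.07. NRP1, a nucleosome assembly protein relative, was at 61.9 FPKM in hdt1 and 86.9 FPKM in wild type, 1.40-fold lower (1.32 to 1.499). NAP1;1 was at 69.0 FPKM in hdt1 and 87.3 FPKM in wild type, 1.27-fold lower (1.20 to 1.33), and NAP1;3 was 1.28-fold lower (1.17 to 1.41). These 3 carry H2A and H2B. The FACT subunits SPT16 and SSRP1, which also handle H2A and H2B and are named here after their values were seen, were 1.16-fold (1.08 to 1.25) and 1.10-fold (1.03 to 1.18) higher. Their log2 ratios were 0.21 and 0.14 as deposited, and 0.04 and 0.09 with the length trend removed. INO80, a remodeller of H2A.Z nucleosomes, was at 17.5 FPKM in hdt1 and 12.7 FPKM in wild type, 1.38-fold higher (1.29 to 1.48). Its length of 4948 bases is also in the range where most genes were higher.

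Most transcripts of DNA replication were low in both libraries, with RNR2A, at 22.5 FPKM in hdt1 and 23.3 FPKM in wild type, as an exception named after its values were seen. Of 17 replication genes 5 entered, 3 above 0 and 2 below, with a median of 0.07 as deposited and 0.0 with the length trend removed. TSO2 and RNR1, ribonucleotide reductase subunits like RNR2A, were at 8.07 and 4.92 FPKM in hdt1, against 5.25 and 3.56 FPKM in wild type. PCNA2, the polymerase clamp, was at 4.59 FPKM in hdt1 and 6.54 FPKM in wild type, 1.42-fold lower (1.12 to 1.82). MCM3, of the replicative helicase, was at 4.17 FPKM in hdt1 and 3.93 FPKM in wild type, with an interval that included 1. Its log2 ratio of 0.07 as deposited was below 0 with the length trend removed. Without the filter on low values 13 of the 17 were above 0, where loci with means of 0.1 to 1 FPKM in general had 1948 above and 1484 below. Of the 17 intervals, 8 lay above 1 and 1 below. Of the 3432 loci with means of 0.1 to 1 FPKM, 506 had an interval above 1 and 174 below. Among the 8, MCM2, MCM4, MCM5, MCM7, PCNA1 and CDT1A had means under 1 FPKM and are named after their values were seen. The 3432 loci are not matched to the 17 genes in length. Of the 8, MCM2, MCM4, MCM7 and RNR1 are 3017, 2743, 2572 and 2972 bases long, in the same length range as ATRX and INO80. Of the genes that entered in that range, 49.7% had an interval above 1 and 74.3% were above 0. MCM5, CDT1A, TSO2 and PCNA1 are shorter, at 2434, 2030, 1342 and 1025 bases. With the length trend removed, 13 of the 17 were again above 0 without the filter.

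Of 12 mitosis genes 4 entered, all above 0. CYCB1;2, a mitotic cyclin, was at 1.86 FPKM in hdt1 and 0.493 FPKM in wild type, from 48 and 12 reads. KN, the cytokinesis syntaxin, was at 3.42 FPKM in hdt1 and 1.47 FPKM in wild type. CDKB2;1 and CDKB2;2, mitotic kinases, were at 3.47 and 1.64 FPKM in hdt1, against 1.96 and 0.758 FPKM in wild type. All 12 were above 0 without the filter, with 9 intervals above 1. Of the 3432 loci with means of 0.1 to 1 FPKM in general, 1948 were above 0 and 506 had an interval above 1, and of all genes with means of 1 to 10 FPKM 23.2% had one.

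Of the 6 E2F and RBR genes, which control entry into S phase, 4 were above 0 and 2 below. E2FB was at 3.39 FPKM in hdt1 and 2.02 FPKM in wild type, 1.68-fold higher (1.28 to 2.22), and E2FC at 4.98 FPKM in hdt1 and 6.90 FPKM in wild type, 1.39-fold lower (1.14 to 1.69). DPB and RBR1 were at 9.83 and 9.28 FPKM in hdt1, against 8.86 and 8.15 FPKM in wild type.

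**Figure D4:**
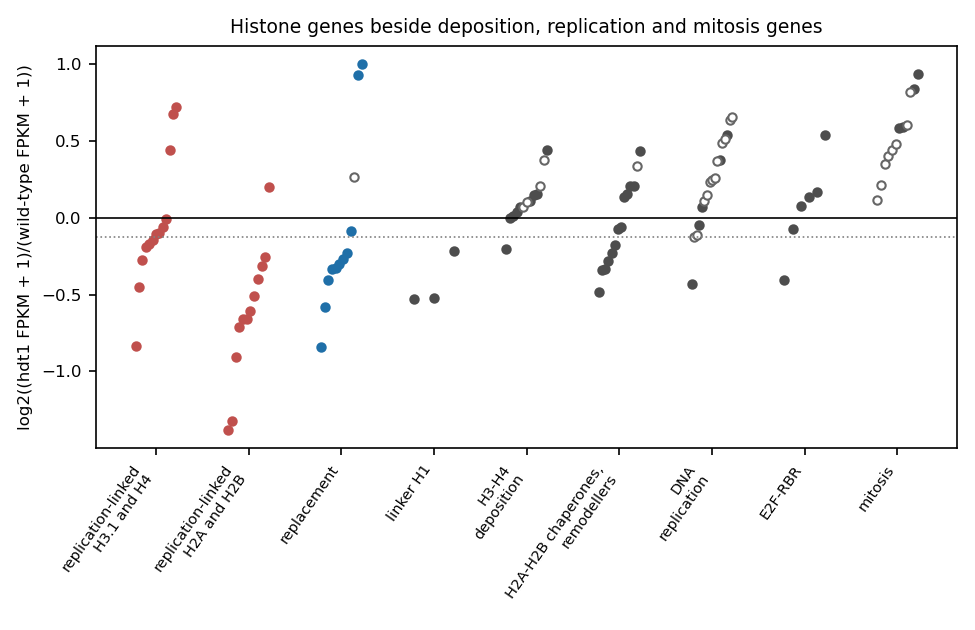
Log2((hdt1 FPKM + 1)/(wild-type FPKM + 1)) of each gene in 4 groups of histone genes and 5 lists of related genes, with filled points for genes whose mean reached 1 FPKM and open points for lower ones, and a dotted line at the median of all genes in the members' length range. H2A and H2B lie below 0 but for HTB2, and the mitosis genes all lie above 0.

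Markers of the tissue moved beside these values. Of 11 stem tissue markers 10 were above 0, with a median of 0.91, covering xylem, fibre and phloem genes and 1 of 2 epidermis genes. Among all genes that entered 46.0% were above 0, with a median of -0.03. The markers, like the other lists, were chosen with earlier results of these data known, so this count is a description only. The epidermis gene LTP1 was 1.78-fold higher (1.53 to 2.07) and CER1 1.44-fold lower (1.26 to 1.64). Among meristem markers STM was at 105 FPKM in hdt1 and 107 FPKM in wild type, and CLV3 at 2.11 FPKM in hdt1 and 4.40 FPKM in wild type. WUS was at 0.0352 FPKM in hdt1 and 0.112 FPKM in wild type, from 1 and 3 reads, and its interval included 1. Of 5 flower and seed markers, SEP3 was at 1.63 FPKM in hdt1 and 0.907 FPKM in wild type, AP1 at 0.6001 FPKM in hdt1 and 0.675 FPKM in wild type, and AG under 0.1 FPKM in both. The seed gene OLEO1 was at 0.143 FPKM in hdt1, from 3 reads, and listed at 0 in wild type, and CRA1 was listed at 0 in both. The part of tissue makeup in the histone differences was not tested.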

How the data were processed

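Total RNA libraries from hdt1 and wild-type main stems, 1 each, were compared. The authors deposited FPKM values for both in 1 table, per the file headers. Per the submitters' processing notes the tools were HTSeq 0.6.1, TopHat2 2.0.12 and Bowtie2 2.2.3. The sources used here do not give the genome build, the annotation or the strand setting, so no coordinates are given. The 67 features without a locus were left out, and no per-sample column was unused (0).

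Whole reads were recovered from the FPKM steps for 23485 of 23501 features above 0. They sum to 98.3% of the total in hdt1 and 98.2% in wild type. The smallest multiple was taken whose gene length reached the shortest annotated coding sequence, so some read numbers may be too low. The recovery was tested on simulated data. Reads are not independent molecules, and read pairs may have been counted as 1 or as 2, so intervals cover counting error only and may be too narrow or too wide.

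Members and lists were chosen with earlier results of these data known. All 40 members are named, with HDT1 and, of each pathway list, up to 4 genes of the largest absolute log2 ratio whose mean reached 1 FPKM. Alternatives were pseudocounts of 0.1 and 5 FPKM, equal sums, median centring, no filter, a mean of at least 5 FPKM, a 1.5-fold limit, other group definitions, and sums of reads. Promoters and names came from RefSeq (TAIR10.1), matched by locus. Python 3.11.15, numpy 2.4.6, pandas 2.3.3, scipy 1.17.1 and matplotlib 3.10.9 were used.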

Additional observations from a re-analysis of the deposited data

How the results depend on the processing

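The median log2 ratio of the replication-linked genes was -0.27. The log2 ratio of their summed FPKM, with no FPKM added, was -0.56, which is not a median and gives abundant genes more weight. The replacement median (-0.30) was -0.24 with equal FPKM sums and -0.25 with median centring. Chosen after seeing the data, removal of the length trend gave -0.071 for the replication-linked and -0.11 for the replacement genes, and leaving out members that share over 5% of windows or overlap a gene gave -0.41 for 16 replication-linked genes; the cause was not tested. AT1G07660 was at 0.03 without the length trend, and the 6 other members that moved above 0 had intervals that included 1. Members at least 2-fold higher numbered 1, but 2 with 0.1 FPKM added, 0 with 5 FPKM added, 2 without the length trend and 4 at a 1.5-fold limit. Members at least 2-fold lower numbered 2, but 1 with 5 FPKM added and 9 at a 1.5-fold limit. By recovered reads, which are not per length, H3.1 made up 2.78% of H3 in hdt1 and 2.06% in wild type, and canonical H2A 18.7% of H2A in hdt1 and 25.8% in wild type. Equal sums or centring moved the median of all genes by at most 0.057 and left 32 members below 0. No paired analysis was possible because each genotype has 1 library and the labels give no shared replicate numbers.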
